A study of Homo sapiens with 12 samples.

Results

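A2M, CD109, CST3, CSTA and CSTB encode inhibitors of proteases or relatives of such inhibitors, and all 5 were found by symbol among the 4918 genes of the expression table. The 5 genes were chosen by symbol with their measured values in every group already known. For that reason their levels and differences are given as a description, without a test, in all 4 comparisons below. RNA of A375 cells, a human melanoma line in long use, was sequenced in 4 groups of 3 samples. Control samples are labelled as untreated, and the others were treated with SB-3CT, with IFN-γ or with SB-3CT and IFN-γ together, for 24 h. SB-3CT is a small-molecule inhibitor of the gelatinases MMP2 and MMP9, and IFN-γ is a cytokine of activated lymphocytes that induces PD-L1. All 4 groups are of this 1 cell line, and the labels give no dose. The labels do not say whether the 3 samples of a group came from separate cultures. The study describes its experiments in general as independent repeats, but does not tie this to the sequenced samples.

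Alpha-2-macroglobulin, the product of A2M, is a large secreted protein that traps proteases of every class, metalloproteinases among them, after they cut its bait region. CD109 is a membrane-anchored member of the same thioester family and is known as a co-receptor that dampens TGF-beta signaling. Cystatins block papain-like cysteine proteases, above all the lysosomal cathepsins. Cystatin C (CST3) is secreted by most cells, whereas the stefins A and B (CSTA and CSTB) act mainly inside cells, stefin A chiefly in epithelia and blood cells.

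Values are FPKM, that is, read fragments corrected for the length of a transcript and for the depth of a sample, which allows levels to be compared between genes. Between samples the values carry shifts of the whole table, which are given with the comparisons they touch. Low FPKM values move in steps of single reads, whose size put the depth of the 12 samples between 87.1% and 150.1% of the mean of the controls. The number of reads is not given in the sources used here. In a bulk sample, fewer cells and less RNA per cell cannot be told apart. The IFN-γ labels were checked with CXCL10, which was at or below 0.050 FPKM in the 6 samples without IFN-γ and between 78.7 and 122.5 FPKM in the 6 samples with it. Among markers of the cell line, CSPG4 and AXL were at 38.8 and 46.7 FPKM over all samples, and DCT, a pigment cell gene, was at 0.154 FPKM. The other markers listed for the cell line were at 11.3 (CDH2), 5.51 (EDNRB), 2.99 (CDH19), 1.45 (EGFR) and 0.088 FPKM (CAPN3). Of markers of other cells that make these inhibitors, the 3 keratinocyte genes in the table (DSC3, DSG1 and EPCAM) summed to at most 1.11 FPKM in any sample, and the 3 endothelial genes (CDH5, CLDN5 and ESAM) to at most 0.670 FPKM. The 4 fibroblast and 2 T cell genes summed to at most 0.646 and 0.161 FPKM. The 4 macrophage genes in the table summed to between 19.88 and 31.99 FPKM. That sum came from CD68, a lysosomal protein that tumor cells also make, since CD14, CSF1R and CYBB averaged 0.088, 0.171 and 0.0068 FPKM.

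The genes lie on different chromosomes of hg19, the build the authors used. A2M is on the minus strand of chromosome 12 from 9220260 to 9268825, and its canonical transcript has 36 exons and 4610 bases. CD109 is on the plus strand of chromosome 6 from 74405508 to 74538040 and has 33 exons and 9031 bases. The cystatin transcripts are short. CST3 (chromosome 20, minus strand, 23607343 to 23619110) has 793 bases, CSTA (chromosome 3, plus strand, 122044095 to 122060816) has 744, and CSTB (chromosome 21, minus strand, 45192392 to 45196211) has 588, each in 3 exons. Transcript length is given because removing each sample's trend with length is one of the scalings applied below.

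Promoter sequences of CD109 and CST3 were at hand in a RefSeq table on build GRCh38.p14, which matched 2 of the 5 genes. They are shown because CD109 was lower in every treated group while the level of CST3 overlapped between all groups. Each is a window of 300 bases listed for the start of the gene, 5′ to 3′ on the gene's strand. Capitals mark a match to the GC box letters (GGGCGG or its complement), which SP1 is known to bind. The CD109 promoter lies at chr6:73695953-73696252 on the plus strand and the CST3 promoter at chr20:23637906-23638205 on the minus strand.
CD109: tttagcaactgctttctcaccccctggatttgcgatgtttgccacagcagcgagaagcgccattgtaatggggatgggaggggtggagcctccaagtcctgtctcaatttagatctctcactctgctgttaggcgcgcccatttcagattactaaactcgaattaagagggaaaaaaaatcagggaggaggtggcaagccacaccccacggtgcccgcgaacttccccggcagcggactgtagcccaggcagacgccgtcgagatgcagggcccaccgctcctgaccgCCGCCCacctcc
CST3: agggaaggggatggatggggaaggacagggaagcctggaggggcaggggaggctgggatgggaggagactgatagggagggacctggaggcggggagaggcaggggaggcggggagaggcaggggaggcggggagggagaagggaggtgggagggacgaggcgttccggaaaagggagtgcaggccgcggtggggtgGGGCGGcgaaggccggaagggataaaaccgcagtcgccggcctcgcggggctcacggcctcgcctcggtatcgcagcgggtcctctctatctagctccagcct
Each window held 1 match to these letters with both strands searched, and 45.0% of the 35116 promoters of that table held at least 1. The match began at base 289 of the CD109 window and at base 198 of the CST3 window. In CD109 it lies near the 3′ end of the window, after the last ATG there. The reading frame from that ATG has no stop up to the end of the window. The CD109 letters are thus most likely coding sequence, and they are not read as a promoter element. Binding was not tested. Neither window held the core of the interferon-stimulated response element (TTTC, any 2 bases, then TTTC, in 3.6% of all promoters), an AP-1 element (TGANTCA, in 7.7%) or TATAAA (in 11.5%), each searched on both strands.

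A2M was low without IFN-γ and high with it. It measured 2.43, 2.71 and 2.96 FPKM in the control samples and 2.61, 2.66 and 2.60 FPKM with SB-3CT. With IFN-γ it measured 40.1, 35.8 and 38.6 FPKM, and with SB-3CT and IFN-γ 32.7, 32.4 and 33.5 FPKM. The 6 samples with IFN-γ all lay above the 6 without it, and the samples with both agents lay just below those with IFN-γ alone. The mean was thus 14.1-fold higher with IFN-γ than in controls (12.1- to 16.5-fold over the pairs of samples), a difference of 3.40 ± 0.07 (SE) in log2(FPKM + 1). In cells that also received SB-3CT the corresponding ratio was 12.5-fold (12.18- to 12.90-fold), a difference of 3.22 ± 0.04 (SE).

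SB-3CT alone left A2M within the range of the controls, with a difference of -0.03 ± 0.08 (SE) in log2(FPKM + 1). Under IFN-γ the difference with SB-3CT was -0.21 ± 0.06 (SE), or 0.861-fold in mean FPKM. For comparison, over the 3177 genes with a mean of at least 1 FPKM, the median difference between SB-3CT with IFN-γ and IFN-γ was -0.20. The median ratio of a sample to the geometric mean of all samples was 0.861 to 0.870 in the 3 samples with both agents and 0.983 to 1.09 in the other 9. Dividing by it turned the A2M difference to 0.04 ± 0.04 (SE), and removing each sample's trend with transcript length turned it to 0.13 ± 0.04 (SE). The direction of the A2M difference between SB-3CT with IFN-γ and IFN-γ therefore depended on the scaling, whereas the difference with IFN-γ lay between 3.35 and 3.77 under the other scalings and a pseudocount of 0.1.

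A2M-AS1, a non-coding gene on the opposite strand (chromosome 12, 9217759 to 9221285) whose end overlaps that of A2M, was at most 0.163 FPKM in any sample. Whether the counting used strand was not stated, so reads in the overlap of A2M and A2M-AS1 cannot be assigned to either.

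**Figure D1:**
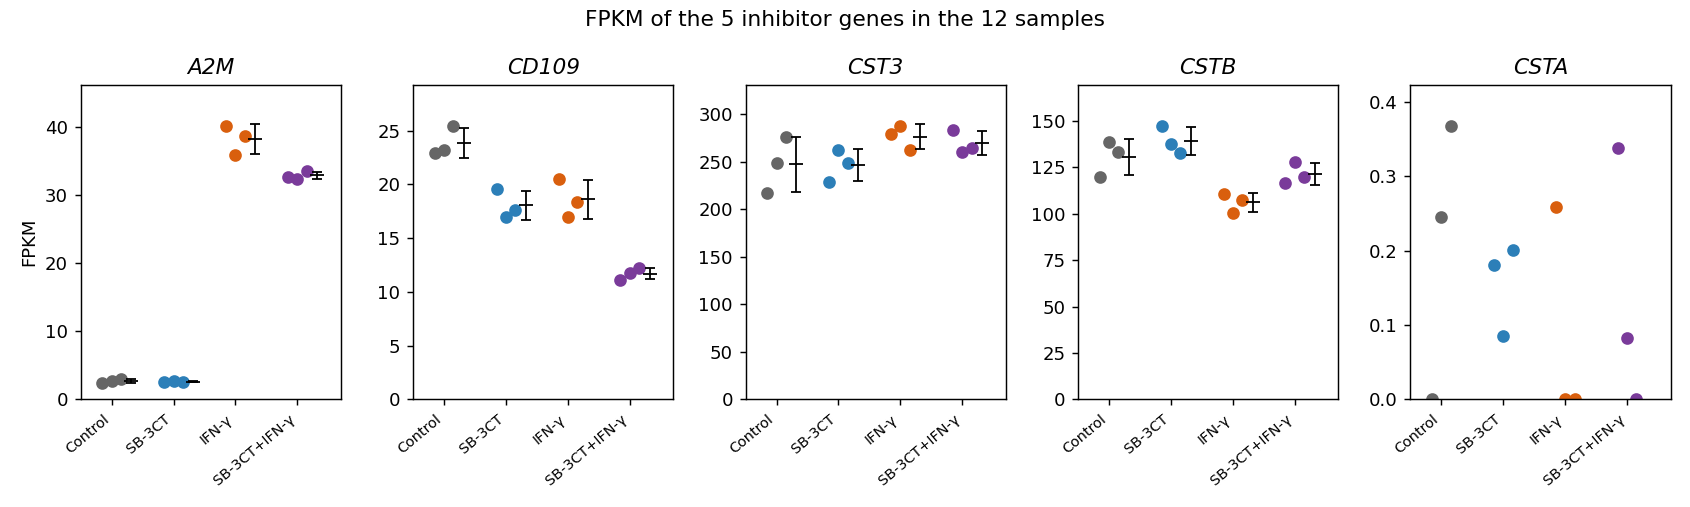
FPKM (y axis, linear and starting at 0, with its own range for each gene) of A2M, CD109, CST3, CSTB and CSTA in each of the 12 samples, 3 points for each group on the x axis; the bars beside the points give the mean ± SD (n = 3) and are left out for CSTA, which was listed at 0 in 4 samples. A2M is at most 2.96 FPKM without IFN-γ and at least 32.4 FPKM with it, CD109 is highest in the controls and lowest with SB-3CT and IFN-γ, and CST3 overlaps between all groups.

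CD109 was highest in untreated cells and lower in each treated group. It measured 22.9, 23.2 and 25.4 FPKM in the controls and 19.5, 17.0 and 17.6 FPKM with SB-3CT. It measured 20.5, 16.9 and 18.4 FPKM with IFN-γ and 11.1, 11.8 and 12.2 FPKM with SB-3CT and IFN-γ. The SB-3CT and IFN-γ groups overlapped each other, all of their samples lay below the controls, and all samples with both agents lay below these. Mean CD109 was 0.757-fold that of controls with SB-3CT (0.668- to 0.853-fold over the pairs of samples) and 0.780-fold with IFN-γ (0.665- to 0.894-fold).

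In log2(FPKM + 1), CD109 differed from control by -0.38 ± 0.07 (SE) with SB-3CT and by -0.34 ± 0.08 (SE) with IFN-γ. Adding SB-3CT to IFN-γ gave -0.62 ± 0.08 (SE), and adding IFN-γ to SB-3CT gave -0.58 ± 0.06 (SE). The median gene had -0.20 and -0.21 in these last comparisons, and -0.03 and -0.04 for SB-3CT and for IFN-γ against control. CD109 kept its direction, with no overlap between groups, under both other scalings in all 4 comparisons. Its difference between SB-3CT with IFN-γ and IFN-γ was -0.38 ± 0.06 (SE) after scaling by the median ratio and -0.21 ± 0.05 (SE) after the length trend was removed. The SB-3CT difference of CD109 under IFN-γ minus that without was -0.24 ± 0.11 (SE), and the median of the 3177 genes with a mean of at least 1 FPKM was -0.19 on this measure.

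The order of A2M and CD109 by FPKM was opposite with and without IFN-γ. Per kilobase, CD109 exceeded A2M in all 6 samples without IFN-γ (at least 17.0 against at most 2.96 FPKM), and A2M exceeded CD109 in all 6 samples with it (at least 32.4 against at most 20.5 FPKM). Among the 4918 genes by mean FPKM, A2M stood at rank 2666 in controls and 612 with IFN-γ, whereas CD109 went from rank 874 in controls to 1307 with both agents.

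CST3 was the most highly expressed of the 5 genes in every sample. It measured 216.9, 248.6 and 275.4 FPKM in controls and 228.3, 262.5 and 248.3 FPKM with SB-3CT. With IFN-γ it measured 278.9, 287.4 and 262.0 FPKM, and with SB-3CT and IFN-γ 283.5, 259.6 and 264.7 FPKM. Every pair of groups overlapped, and the widest spread was that of the controls (SD 29.2 FPKM, n = 3). In log2(FPKM + 1) the differences of CST3 were 0.17 ± 0.09 (SE) for IFN-γ and 0.00 ± 0.09 (SE) for SB-3CT against control, -0.04 ± 0.06 (SE) for SB-3CT with IFN-γ against IFN-γ, and 0.13 ± 0.06 (SE) for SB-3CT with IFN-γ against SB-3CT. The third of these became 0.22 ± 0.08 (SE) after scaling by the median ratio and -0.27 ± 0.06 (SE) after the length trend was removed, so no direction can be given for CST3 there.

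CSTB, at about 100 to 147 FPKM, was next to CST3 in level, and the ranges of CST3 and CSTB did not meet in any group. It measured 119.8, 138.5 and 133.1 FPKM in controls and 147.2, 137.6 and 132.7 FPKM with SB-3CT. With IFN-γ it measured 110.5, 100.5 and 107.4 FPKM, and with SB-3CT and IFN-γ 116.6, 127.7 and 119.8 FPKM. The IFN-γ samples lay below all other samples, and the SB-3CT and control samples overlapped. Against control, CSTB was 0.813-fold with IFN-γ (0.725- to 0.922-fold over the pairs of samples), a difference of -0.29 ± 0.07 (SE) in log2(FPKM + 1), and it was -0.24 ± 0.06 (SE) and -0.29 ± 0.10 (SE) under the other scalings.

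With SB-3CT and IFN-γ, CSTB was 1.14-fold that with IFN-γ alone, a difference of 0.19 ± 0.06 (SE) while the median gene was at -0.20. Scaling by the median ratio raised this difference to 0.45 ± 0.05 (SE), and removal of the length trend turned it to -0.14 ± 0.09 (SE) with the groups overlapping. For SB-3CT with IFN-γ against SB-3CT, CSTB had -0.20 ± 0.05 (SE), which turned to 0.07 ± 0.05 (SE) after scaling by the median ratio and to -0.51 ± 0.07 (SE) after the length trend was removed. The ratio of CSTB to CST3 within a sample does not depend on a scaling of whole samples. Removal of the length trend can change it, and the ratio was not computed after that removal. As deposited, the ratio was 0.531 ± 0.041 (SD, n = 3) in controls, 0.568 ± 0.067 with SB-3CT, 0.385 ± 0.032 with IFN-γ and 0.452 ± 0.040 with both agents. The 3 ratios with IFN-γ alone, at most 0.410, lay below those of all other samples, the nearest being 0.411 with both agents.

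CSTA was close to the limit of detection. It was listed at 0 in 4 samples, namely control replicate 1, IFN-γ replicates 2 and 3, and replicate 3 of SB-3CT with IFN-γ, and its highest value was 0.368 FPKM in control replicate 3. After multiplication by relative depth, the values of the other 8 samples lay within 0.15 of 2 to 10 whole steps of 0.0394 FPKM. This step was picked as the largest that kept these same values within 0.15, so the number of reads behind them is not established by it. The 4 groups overlapped, and no fold change is given for CSTA.

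**Figure D2:**
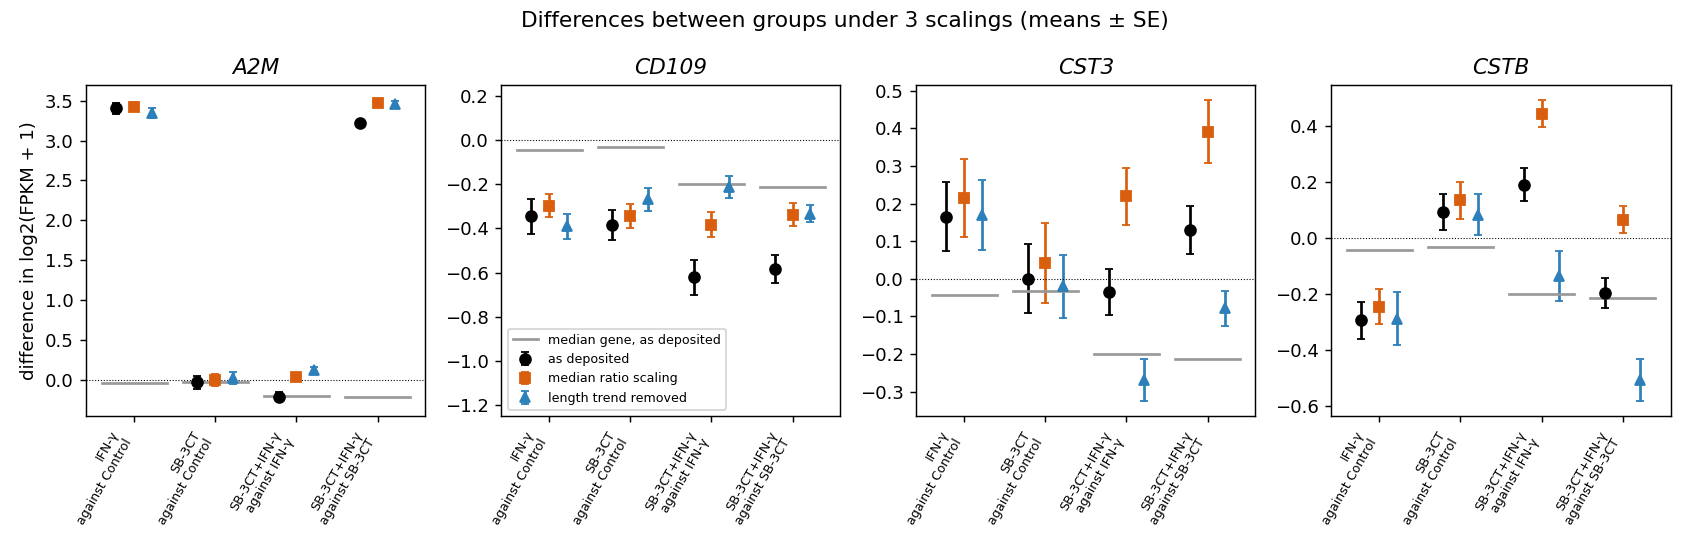
Difference in log2(FPKM + 1) between groups (y axis, its own range for each gene; points are differences, bars are ± SE from limma) of A2M, CD109, CST3 and CSTB in the 4 comparisons on the x axis, as deposited (circles), after scaling by the median ratio (squares) and after removal of the length trend (triangles); grey lines give the median gene as deposited. A2M stays between 3.22 and 3.47 in both comparisons of IFN-γ, CD109 stays below 0 throughout, and CST3 and CSTB change sign with the scaling in the comparisons that include SB-3CT with IFN-γ.

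In the comparison of IFN-γ with control, 3 of the 5 genes (A2M, CD109 and CSTB) had no overlap between groups, where 36.9% of all genes had none. For SB-3CT against control it was CD109 alone, 1 of 5, where 33.9% of all genes had none. For SB-3CT with IFN-γ against IFN-γ it was A2M, CD109 and CSTB, where 49.0% of all genes had none, and for SB-3CT with IFN-γ against SB-3CT the same 3 genes, where 51.7% had none. Nothing is read from these counts, since the genes were picked with these values known, and comparisons that share a group are not independent of each other.

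For the genes with a mean of at least 1 FPKM, the genes most alike in their values over the 12 samples were found by Pearson's r of log2(FPKM + 1). The 12 samples form separate groups, so r mainly restates the group means and is given as a description. Nearest to A2M were BST2, which encodes the antiviral membrane protein tetherin (r = 0.9994, 2.83 FPKM in controls and 352.8 with IFN-γ), BATF2, an interferon-induced transcription factor (r = 0.9993, 2.39 and 56.1 FPKM), and C1S, a complement protease (r = 0.9992, 0.236 and 42.5 FPKM). Nearest to CD109 were AMMECR1 (r = 0.990), AGPS, an enzyme of ether lipid synthesis (r = 0.990), and ESYT2, a membrane-tethering protein (r = 0.989), the last at 18.5 FPKM in controls and 9.99 with both agents. CSTB was nearest to DHRS7 (r = 0.936), CUTC (r = 0.921) and ATP6V1E1, a subunit of the lysosomal proton pump (r = 0.905). For CST3 the highest values were lower, with CPSF4 at 0.813, the transcription factor gene CEBPD at 0.795 and C17orf49 at 0.790.

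Relatives and targets of these inhibitors were read from hand-written lists and tested with limma over all 4918 genes. The lists were also chosen with earlier results of these data known, so counts over them are a description. The table runs in alphabetical order from A1BG to FAM46B, so the lists hold genes of that range, and later symbols were not analysed here. Of the listed genes, 57 were in the table, and 63.2% of them had a mean of at least 1 FPKM, against 64.6% of the whole table. With IFN-γ against control, 11 of the 57 rose and 6 fell (adjusted p under 0.05), where 8.46% and 11.0% of all genes did. With SB-3CT against control, 3 rose and 7 fell, where 5.37% and 6.87% of all genes did. With SB-3CT and IFN-γ against IFN-γ, 1 rose and 20 fell, where 6.41% and 31.5% did, and against SB-3CT 7 rose and 15 fell, where 7.85% and 32.7% did. After scaling by the median ratio the splits were 14 and 6, 6 and 6, 7 and 14, and 10 and 7 in the same order. In the last comparison the split between rises and falls was 11 and 9 after the length trend was removed, so the excess of falls there was kept by neither scaling.

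The median difference of the 57 genes was 0.00 for IFN-γ and -0.07 for SB-3CT against control, -0.11 for SB-3CT with IFN-γ against IFN-γ and -0.06 against SB-3CT. Over all 4918 genes these medians were -0.02, -0.01, -0.09 and -0.11. The count for SB-3CT against control rested on single samples. It was 2 of 57 genes in each of the 5 fits that left out a sample other than SB-3CT replicate 1, and 15 without SB-3CT replicate 1.

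Among the other thioester genes in the table, C3, the central complement component and a relative of A2M, was the sole gene with a mean above 1 FPKM. It rose from 2.89 ± 0.18 FPKM (SD, n = 3) in controls to 21.6 ± 0.75 FPKM with IFN-γ, a log2 difference of 2.54 (SE 0.06, adjusted p = 3.08e-06 from limma). With both agents C3 was at 21.2 ± 0.62 FPKM. A2ML1, C5 and CPAMD8 averaged at most 0.028 FPKM. None of the 5 other cystatin superfamily genes in the table (CST1, CST2, CST6, CST7 and AHSG) reached a mean of 1 FPKM, CST7 being the highest at 0.397 FPKM. Since CST1 and CST2 are near-identical copies, reads between them may be split.

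The papain-like cathepsins, the proteases that cystatins hold in check, moved in both directions with IFN-γ. Of the 11 in the table, 90.9% had a mean of at least 1 FPKM, against 64.6% of all genes. With IFN-γ, 4 of them rose (CTSS, CTSO, CTSC and CTSL) and 2 fell (CTSH and CTSK), where 8.46% and 11.0% of all genes did. Of these calls by limma, those of CTSL, CTSH and CTSK did not hold in 3, 5 and 3 of the 6 fits that left out 1 sample, all of them lost without control replicate 1 and without IFN-γ replicate 3. The CTSH call was also lost after scaling by the median ratio (adjusted p = 0.0627 from limma). CTSS, the cathepsin that processes the MHC class II invariant chain, rose from 0.871 ± 0.188 to 42.6 ± 1.299 FPKM (SD, n = 3 each), a log2 difference of 4.55 (SE 0.08, adjusted p = 1.57e-06 from limma). In cells with SB-3CT it rose from 0.777 ± 0.086 to 48.0 ± 3.18 FPKM (log2 difference 4.78, SE 0.07, adjusted p = 5.78e-07 from limma). CTSL was the listed gene that rose with SB-3CT in both settings. It went from 96.1 ± 2.89 to 131.6 ± 7.50 FPKM without IFN-γ (log2 difference 0.45, adjusted p = 0.00596 from limma) and from 122.6 ± 9.68 to 160.2 ± 3.73 FPKM with it (0.39, adjusted p = 0.00446 from limma). CTSZ, the highest of the group, was at 275.4 ± 23.2 FPKM in controls and at 183.0 ± 6.65 FPKM with both agents, groups that were not compared by a test. It was not called for IFN-γ or for SB-3CT against control. The calls of CTSZ with both agents against IFN-γ and against SB-3CT were lost after scaling by the median ratio.

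Set against these targets, the summed level of CST3, CSTB and CSTA overlapped between all groups. The sum was 377.7 ± 37.04 FPKM in controls, 385.7 ± 12.8 with SB-3CT, 382.3 ± 11.2 with IFN-γ and 390.7 ± 8.47 with both agents (SD, n = 3 each). The 11 cathepsins summed to 594.4 ± 34.6, 570.2 ± 3.54, 687.8 ± 46.4 and 635.3 ± 9.89 FPKM in the same order. Cystatin per cathepsin mRNA was therefore 0.634 ± 0.028 in controls, 0.676 ± 0.020 with SB-3CT, 0.557 ± 0.039 with IFN-γ and 0.615 ± 0.011 with both agents. All 3 values with SB-3CT, from 0.658 to 0.698, lay above those of the other groups, and the 3 with IFN-γ, from 0.529 to 0.602, lay below all others, although the highest of them was next to a sample with both agents at 0.602 and a control at 0.603. The ratios are of FPKM as deposited and were not computed after the length trend was removed. For SB-3CT with IFN-γ against IFN-γ, that removal moved CST3 from -0.04 to -0.27 and CSTB from 0.19 to -0.14. The order of these groups may therefore depend on the scaling.

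Other inhibitors of endopeptidases in the table were led by APP and APLP2, which carry Kunitz-type domains, BIRC5, and CAST, the calpain inhibitor calpastatin. With IFN-γ, 4 of the 10 rose (APP, BIRC3, CARD16 and CAST) and APLP2 fell, where 8.46% and 11.0% of all genes did. The calls of CAST and APLP2 were lost in 3 and 5 of the 6 fits that left out 1 sample, both of them without control replicates 1 and 2 and without IFN-γ replicate 3. CARD16, whose product blocks caspase-1 and whose sequence is close to that of CASP1, so that reads may be shared, was at 0.422 ± 0.225 FPKM in controls and 5.84 ± 0.83 FPKM with IFN-γ. In cells with SB-3CT, CARD16 rose from 0.174 ± 0.241 to 7.40 ± 1.08 FPKM (log2 difference 2.85, SE 0.17, adjusted p = 0.000179 from limma). CAST was at 20.0 ± 1.35 FPKM in controls, 25.5 ± 1.39 with IFN-γ and 16.0 ± 2.04 with both agents. With SB-3CT added to IFN-γ, 5 of the 10 fell (APLP2, APP, BIRC2, BIRC6 and CAST) and none rose, where 31.5% and 6.41% of all genes did. The call of APLP2 was lost after the length trend was removed (adjusted p = 0.118 from limma).

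**Figure D3:**
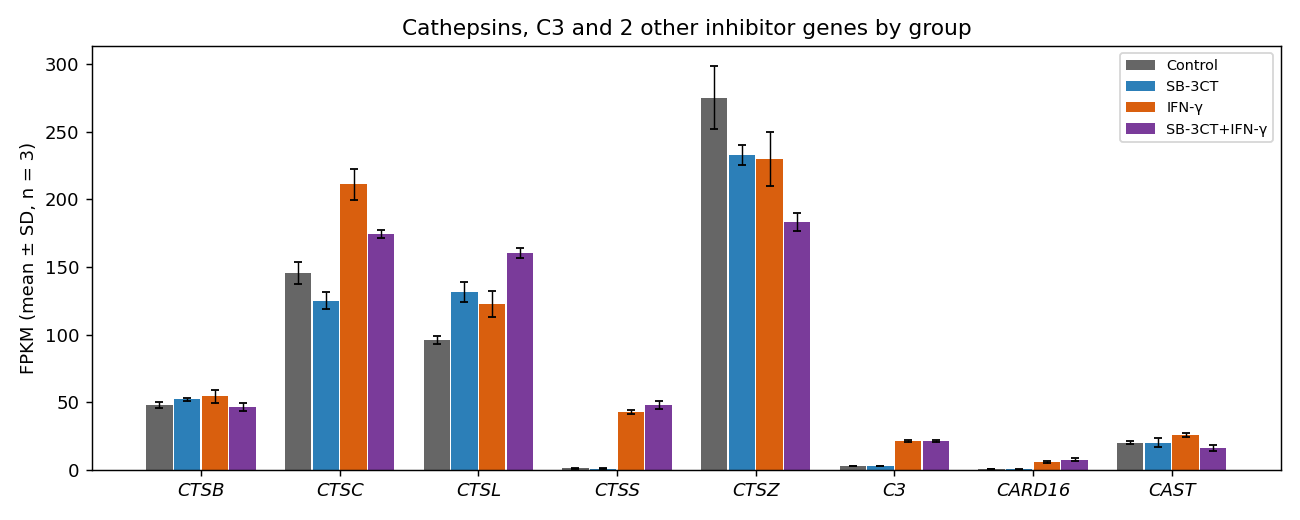
FPKM (y axis, linear from 0; bars are means and error bars ± SD, n = 3) of 5 cathepsin genes, C3, CARD16 and CAST on the x axis in the 4 groups, by color. CTSS, C3 and CARD16 are high in the groups with IFN-γ, at 42.6, 21.6 and 5.84 FPKM with IFN-γ alone, and CTSL is highest with both agents, at 160.2 FPKM.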

How the data were processed

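RNA-seq of A375 cells was read from 1 deposited table of 4918 genes, in which the values are log2(FPKM + 1) made by the authors. The submitters' processing notes name HISAT2 2.0.5, StringTie 1.3.3 and hg19. Strandedness was not given in the sources used here. The 12 sample columns were matched to their labels, 0 were left unused, and the sum of FPKM per sample ran from 121928 to 129692. The 5 genes and all gene lists were chosen with earlier results of these data known. Groups were compared with limma 3.58.1 (R 4.3.3, unpaired, 3 against 3 samples) on log2(FPKM + 1), with a pseudocount of 1, no filter and Benjamini-Hochberg adjustment over all genes at 0.05. Standard errors come from the same fit, which was tested on simulated data. Fold changes on this scale understate those of low genes. FPKM were obtained by undoing the logarithm. Genes named beside the 5 were the 3 most alike to each by Pearson's r, listed genes with a mean of at least 1 FPKM, and per comparison the 2 largest called rises and falls on the lists; listed genes under 1 FPKM were named as values after these were seen. Alternatives were a pseudocount of 0.1, scaling by the median ratio, removal of the trend with transcript length (loess, span 0.5, lengths for 98.5% of symbols), a minimum mean of 1 FPKM, a fit over all 4 groups, a replicate block and leaving out each sample. Positions and lengths come from GENCODE v44lift37. Since the labels do not tie the samples to separate cultures, p-values measure only the spread between these samples.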

Additional observations from a re-analysis of the deposited data

How the results depend on the processing

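For the 4 genes with differences, 125 values under other settings moved by less than the spread between replicates, and 19 moved by more. The sign changed in 13 of the 144, of which 4 (2 each of A2M and CSTB) were differences between groups that did not overlap and 9 were differences of A2M or CST3 between groups that did. With a pseudocount of 0.1, A2M was 3.77 for IFN-γ against control and 3.597 for SB-3CT with IFN-γ against SB-3CT. For SB-3CT with IFN-γ against IFN-γ, scaling by the median ratio gave A2M 0.040, CD109 -0.38, CST3 0.22 and CSTB 0.45, and removing the length trend gave 0.13, -0.21, -0.27 and -0.14. For SB-3CT with IFN-γ against SB-3CT these scalings gave A2M 3.47 and 3.45, CD109 -0.34 and -0.33, CST3 0.39 and -0.079, and CSTB 0.066 and -0.51. Removing the length trend also moved CD109 to -0.27 for SB-3CT against control. The causes were not tested. Leaving out single samples moved no value of these genes by more than the spread, but small differences moved much in proportion: CST3 ran from 0.08 to 0.25 for IFN-γ and from -0.089 to 0.082 for SB-3CT against control and from 0.075 to 0.18 for both agents against SB-3CT, and CSTB from 0.034 to 0.14 for SB-3CT against control.

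Of the 57 listed genes, limma called 10 to 17 for IFN-γ against control when 1 sample was left out, against 17 with all (10 without control replicate 1, 11 without IFN-γ replicate 3), and 2 to 15 for SB-3CT against control, against 10 with all. The replicate block gave 5 calls for SB-3CT against control (2 higher, 3 lower), and 14, 19 and 18 in the other comparisons in the order of the report, against 17, 21 and 22 without the block. Same-numbered samples deviated from their group means with correlations of -0.39 to 0.17, so their numbers were not taken as pairs. Of the 17, 10, 21 and 22 listed genes called in the 4 comparisons, 7, 8, 4 and 4 lost their call in at least 1 fit that left out a sample, and 1, 2, 8 and 8 under at least 1 of the other scalings. Depth limits CSTA, for which no difference was detectable.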

Other observations

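Metalloproteinases, which alpha-2-macroglobulin is known to trap, were measured for 15 of 17 listed genes, all of the ADAM and ADAMTS families or BMP1. Matrix metalloproteinases, with the SB-3CT targets MMP2 and MMP9, were not analysed here. For SB-3CT against control, 1 rose and 5 fell, where 5.37% and 6.87% of all genes did, and for IFN-γ against control 1 rose and 2 fell, where 8.46% and 11.0% did. The calls of 5 of the 6 genes for SB-3CT against control, ADAM19 excepted, were lost in 5 of the 6 fits that left out 1 sample. ADAM19, a membrane-bound sheddase, was at 9.57 ± 0.69 FPKM in controls, 5.79 ± 0.27 with SB-3CT, 4.23 ± 0.45 with IFN-γ and 2.30 ± 0.11 with both agents (SD, n = 3 each). It fell by 1.02 in log2(FPKM + 1) with IFN-γ (adjusted p = 0.000821 from limma), by 0.64 with SB-3CT (adjusted p = 0.00596 from limma), and by 1.04 with both agents against SB-3CT (adjusted p = 0.000237 from limma). ADAM10 fell by 0.73 and ADAM9 by 0.78 when SB-3CT was added to IFN-γ (adjusted p = 0.00207 from limma for each), where 0 of the 15 genes rose and 5 fell, against 6.41% and 31.5% of all genes. As deposited, the median gene with a mean of at least 1 FPKM had -0.20 there. Scaling by the median ratio gave ADAM10 -0.49 and ADAM9 -0.54, and removing the length trend gave -0.30 and -0.48. ADAM15, at 105.2 ± 2.23 FPKM in controls and 125.6 ± 7.31 with SB-3CT, rose by a log2 difference of 0.25 (adjusted p = 0.0263 from limma).

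Activin and BMP receptors, BAMBI, ENG and CAV1 made up a list of 12 genes, and the TGF-beta receptor genes TGFBR1 and TGFBR2 were not analysed here. For SB-3CT with IFN-γ against IFN-γ, 0 rose and 6 fell, where 6.41% and 31.5% of all genes did, with a median difference of -0.32 against -0.09 over all genes. Of these calls, those of ACVR2A and ENG were lost under both other scalings, and that of BMPR2 after the length trend was removed. The ACVR2A call was also lost in 4 of the 6 fits that left out 1 sample. Against control, 1 rose and 1 fell with IFN-γ, where 8.46% and 11.0% of all genes did. With SB-3CT against control 0 rose and 1 fell, where 5.37% and 6.87% of all genes did. BAMBI, a decoy receptor of the pathway, was at 24.9 ± 2.51 FPKM in controls, 29.0 ± 1.19 with SB-3CT, 17.5 ± 1.83 with IFN-γ and 17.3 ± 0.25 with both agents (SD, n = 3 each). It fell by 0.48 with IFN-γ (adjusted p = 0.019 from limma) and by 0.71 with both agents against SB-3CT (adjusted p = 0.000179 from limma). The IFN-γ call was lost in 4 of the 6 fits that left out 1 sample. CAV1, the caveolae protein with which CD109 is known to associate, was at 69.7 ± 1.51, 65.1 ± 3.71, 64.2 ± 2.94 and 47.5 ± 2.29 FPKM in the same order of groups.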
